A study of Mus musculus with 7 samples.

Results

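The orosomucoids (Orm1, Orm2 and Orm3), the serum amyloid A genes (Saa1, Saa2, Saa3 and Saa4), haptoglobin (Hp), hemopexin (Hpx) and lipocalin 2 (Lcn2) are acute phase genes of the liver, and their transcripts were compared between livers labelled as HDAC3 knockout and livers given HDAC3 back. The members were the probe sets of the deposited table that carry exactly 1 gene symbol from this set. All 10 genes were found, each with 1 probe set, among 19933 genes measured, and no filter on low values was applied. No probe set with several symbols named any of them. Paralogs of the Orm and Saa families are similar in sequence, so their probe sets may cross-hybridise and a value may hold signal of a relative.

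The samples were 7 livers of male C57BL/6 mice aged 4 months. In 3 mice, labelled HDAC3 knockout, livers were infected with AAV-Cre alone, an adeno-associated virus that delivers the recombinase Cre. Another 4 mice, labelled HDAC3 rescued wild-type and called rescued here, received AAV-Cre together with AAV-Flag-HDAC3, a virus for Flag-tagged wild-type HDAC3. The sample titles call these 4 livers WT, whereas their descriptions and genotype labels give both viruses, and they are not taken here as untreated wild type. All mice thus carried the Cre virus, and the groups differ by the HDAC3 virus. The labels name neither the allele on which Cre acts nor the promoters of the viruses, which limits what is known of the cells reached, and uninjected livers were not analysed here. Mice ate normal chow freely, and livers were taken 2 weeks after injection at 5 pm, zeitgeber time 10 h. The labels call the samples of each group biological replicates. The comparison asks which transcripts differ between livers labelled as depleted of HDAC3, a histone deacetylase of nuclear receptor corepressor complexes, and livers in which it was supplied again.

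Acute phase proteins are plasma proteins whose synthesis by hepatocytes changes in inflammation and injury. Interleukin-6 acts through gp130 and STAT3, interleukin-1 and TNF through NF-kB, and C/EBP factors and the glucocorticoid receptor take part at many of these promoters. Orosomucoids bind basic and lipophilic molecules in plasma, serum amyloid A proteins travel on high-density lipoprotein, and haptoglobin and hemopexin capture free haemoglobin and haem.

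The promoters of 4 genes are shown first, because Orm3, the member called in the test below, lies next to its paralog Orm2 in the genome, which was not called, and Saa1 lies next to Saa2. Of the 10 genes, 8 had a promoter in the RefSeq table of build GRCm38.p6, each window running from 250 bases before to 50 after the annotated start. Orm1 and Hp had no entry. Capitals mark matches to the C/EBP core TTGCNNAA on either strand and to the TATA box letters TATAAA.
Orm3 promoter, chr4:63355908-63356207, plus strand: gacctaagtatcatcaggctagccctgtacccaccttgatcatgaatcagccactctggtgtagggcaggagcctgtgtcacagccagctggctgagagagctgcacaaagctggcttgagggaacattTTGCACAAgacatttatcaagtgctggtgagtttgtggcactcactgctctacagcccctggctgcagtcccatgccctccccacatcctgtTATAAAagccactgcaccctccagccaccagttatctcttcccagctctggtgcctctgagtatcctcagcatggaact
Orm2 promoter, chr4:63362199-63362498, plus strand: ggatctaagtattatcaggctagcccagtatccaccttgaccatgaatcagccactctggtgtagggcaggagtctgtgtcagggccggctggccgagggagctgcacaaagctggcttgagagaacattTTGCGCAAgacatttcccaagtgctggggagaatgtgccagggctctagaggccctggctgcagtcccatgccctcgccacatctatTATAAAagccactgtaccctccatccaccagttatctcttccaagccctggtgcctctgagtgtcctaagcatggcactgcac
Saa1 promoter, chr7:46742931-46743230, minus strand: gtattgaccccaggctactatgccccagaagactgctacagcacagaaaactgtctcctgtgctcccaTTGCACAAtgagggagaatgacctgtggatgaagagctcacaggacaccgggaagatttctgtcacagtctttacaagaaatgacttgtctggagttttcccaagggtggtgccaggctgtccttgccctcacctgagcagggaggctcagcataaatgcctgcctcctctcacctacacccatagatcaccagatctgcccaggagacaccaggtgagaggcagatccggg
Saa2 promoter, chr7:46751583-46751882, plus strand: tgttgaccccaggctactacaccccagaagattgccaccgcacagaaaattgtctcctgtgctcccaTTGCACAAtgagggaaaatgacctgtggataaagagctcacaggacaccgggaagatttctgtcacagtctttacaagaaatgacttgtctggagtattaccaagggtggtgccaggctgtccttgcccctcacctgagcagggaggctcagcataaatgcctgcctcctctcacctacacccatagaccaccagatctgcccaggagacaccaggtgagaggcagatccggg
The Orm3 and Orm2 windows were identical at 86.6% of 305 aligned columns, and the Saa1 and Saa2 windows at 95.3% of 301. By contrast, Saa1 matched Saa3 at 54.2% and Saa4 at 50.7% of aligned columns, and the Orm3 and Hpx windows, which are not paralogs, matched at 53.0%. The C/EBP core lay 121 bases upstream of the start in Orm3 (ttgcacaa) and 120 bases upstream in Orm2 (ttgcgcaa). It lay 182 bases upstream in Saa1 and 183 in Saa2, with the same letters (ttgcacaa) in both. All 8 windows held at least 1 match to TTGCNNAA, against 10.8% of 32851 RefSeq promoter windows of the same length. Windows of close paralogs are alike, so the 8 are not independent of each other. The stricter form TTGCNCAA, found in 2.94% of all windows, had no match in those of Saa3 and Hpx. Searched on both strands, the STAT palindrome TTCNNNGAA, the NF-kB consensus and the long form of the glucocorticoid response element had no match in these 8 windows, and they occurred in 8.30%, 5.80% and 0.414% of all windows. The short glucocorticoid letters TGTTCT occurred in 19.0% of all windows and in 1 of these 8, that of Orm2, on the minus strand 128 bases upstream of the start. The motifs were picked with the sequences in view, a match is not a shown binding site, and a site outside the window would not be seen.

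The checks of the arrays concerned depth of signal, the targeted gene and the tissue. Median intensities were 105.01 to 110.85 in knockout and 96.289 to 102.33 in rescued arrays, and over all genes the median log2 difference was 0.09 as deposited and -0.03 after median centring. Small positive differences are therefore to be read against 0.09. Hdac3 had log2 intensities of 8.93, 8.75 and 9.07 in knockout livers, against 9.23, 9.45, 9.55 and 9.38 in rescued livers. It was lower by a log2 difference of -0.48 (SE 0.10, adjusted p = 0.0124), and the groups did not overlap. It missed the threshold with knockout replicate 1 left out (adjusted p = 0.05001). Whether the probe set lies in the deleted part or reads the virus transcript is not known here. Of the hepatocyte markers Alb, Apob, Ttr, Trf, Cps1, Fga and Apoa1, none differed between groups at an adjusted p under 0.05, and all lay at the 100th percentile of 1194 odorant and pheromone receptor genes (symbols Olfr, Vmn1r and Vmn2r), which serve below as a dim background.

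Orm3 was the member that rose in the knockout livers. Its log2 intensity was 9.35, 9.88 and 10.83 in knockout livers, against 7.34, 8.31, 7.66 and 8.22 in rescued livers. Every knockout liver lay above every rescued liver, and the gap between the lowest knockout and the highest rescued value was wider than the whole range of the rescued group. The log2 difference was 2.14 (SE 0.31), a 4.40-fold higher level, with adjusted p = 0.00285. Of the 10 members 1 was called higher and none lower, against 9.54% higher, 4.85% lower and 14.4% in either direction among all 19933 genes. After quantile normalization the share of all genes called higher was 4.22% and lower 5.76%, after median centring 2.59% and 10.9%, and after cyclic loess 4.09% and 5.75%, while the members' count stayed at 1 higher and none lower. All knockout arrays lay above all rescued arrays in 2 members, and among all genes in 21.0%, with 8.56% for the opposite order and no member there. In whole liver, more Orm3 RNA per cell and more cells making it cannot be told apart. When single arrays were omitted, the Orm3 difference lay between 1.73 and 2.47 (adjusted p from 0.00496 to 0.0192), and between 2.02 and 2.25 under the 8 other settings. Without knockout replicate 3, the highest knockout liver, it was 1.73 (adjusted p = 0.00760).

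The other orosomucoids did not pass the test. Orm2 had log2 intensities of 9.46, 9.75 and 11.82 in knockout livers, against 9.05, 10.69, 10.27 and 9.78 in rescued livers. Knockout replicate 3 stood above all others and the remaining knockout livers lay inside the rescued range. The difference was 0.40 (SE 0.51, adjusted p = 0.580), and it was -0.34 (adjusted p = 0.514) without that liver. Orm1, the orosomucoid known to be expressed most strongly in mouse liver, had log2 intensities of 12.86, 12.88 and 13.09 in knockout livers, against 12.72, 12.91, 12.75 and 12.85 in rescued livers. The groups overlapped, with a difference of 0.14 (SE 0.08, adjusted p = 0.240) that shrank to 0.02 after median centring.

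**Figure D1:**
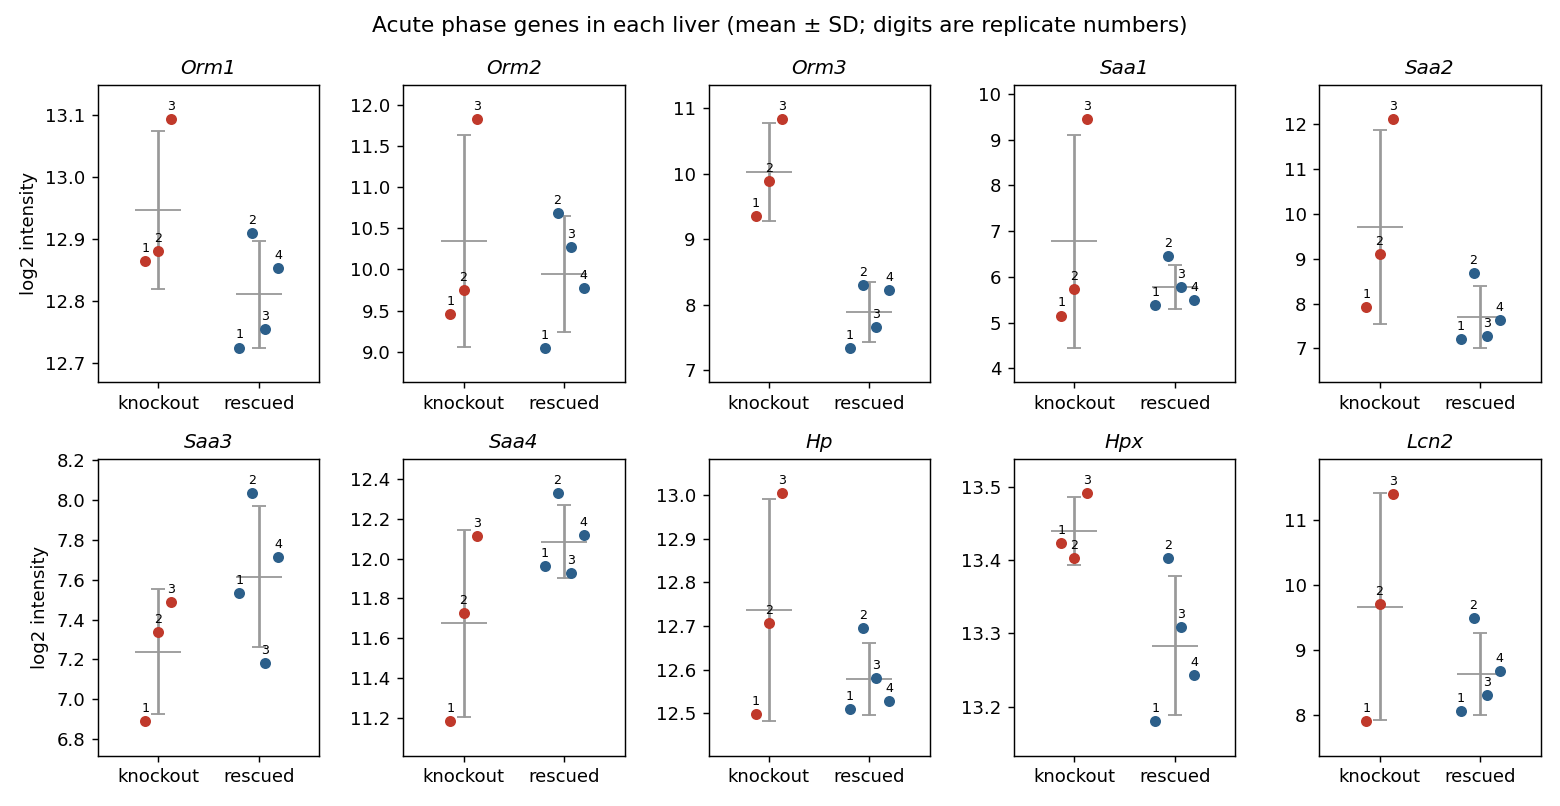
Log2 intensity of each of the 10 acute phase genes (vertical axes differ between panels) in knockout (red, n = 3) and rescued livers (blue, n = 4); points are single livers with their replicate number, and grey bars show the mean ± SD. The groups are apart in Orm3 and touch without overlap in Hpx, and knockout replicate 3 is the highest knockout liver in every panel.

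Orm3 was also set against the other orosomucoids as a ratio within each array, which cancels an offset between arrays. The log2 ratio of Orm3 to Orm2 was -0.32 ± 0.59 in knockout and -2.06 ± 0.51 in rescued livers (SD, n = 3 and n = 4), a difference of 1.74. It ran from -0.99 to 0.13 in knockout and from -2.61 to -1.56 in rescued livers, so the groups did not overlap. The exact permutation p was 0.0571 (two-sided), the smallest that the 35 splits of 3 against 4 arrays allow, so this design cannot reach 0.05. The ratio of Orm3 to Orm1 differed by 2.00 with the same exact permutation p of 0.0571. Ratios of probe sets have a meaning only between arrays and do not compare the amounts of the transcripts. Ratios of Orm3 to all 9 other members were computed, and in 6 of them the groups did not overlap. Orm3 itself separated the groups, so its ratio to a gene that changes little separates them too. The count therefore adds no support to the Orm3 call. The pairs were chosen after the values were seen. The 3 that overlapped were those to Saa1, Saa2 and Lcn2, and the ratio to Saa2 differed by 0.12 with an exact permutation p of 0.914. Orm3 is thus not shown to differ from Saa2 in its response.

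None of the serum amyloid A genes was called, and they split by direction. Saa2, an apolipoprotein induced in inflammation, had log2 intensities of 7.92, 9.11 and 12.11 in knockout livers, against 7.21, 8.69, 7.28 and 7.63 in rescued livers. The knockout livers were spread over 4.19 log2 units, and 1 rescued liver lay between them. Its difference of 2.01 (SE 0.76, adjusted p = 0.0878) was close in size to that of Orm3, with a larger error. Without knockout replicate 3 it was 0.81 (adjusted p = 0.205), and without knockout replicate 1 it was 2.91 (adjusted p = 0.0568). Saa1, its neighbour in the genome, had log2 intensities of 5.15, 5.74 and 9.45 in knockout livers, against 5.38, 6.45, 5.77 and 5.48 in rescued livers. Only knockout replicate 3 and rescued replicate 2 lay above the 95th percentile of the receptor genes on their array (6.32 and 6.15), so no fold is given. The fit, which takes the dim readings as they stand, gave 1.01 (SE 0.78, adjusted p = 0.358) with all arrays and -0.32 (adjusted p = 0.415) without knockout replicate 3, and neither value measures the size of a change in Saa1.

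Saa3 and Saa4 had negative differences. Saa4, the constitutive serum amyloid A of liver, had log2 intensities of 11.18, 11.72 and 12.12 in knockout livers, against 11.96, 12.33, 11.93 and 12.12 in rescued livers. The difference was -0.41 (SE 0.18, adjusted p = 0.128). Without knockout replicate 3 it passed the test at -0.63 (adjusted p = 0.0368), the 1 call among the members that depended on an array. Saa3, which in mice is also made by macrophages and fat tissue, had log2 intensities of 6.89, 7.34 and 7.49 in knockout livers, against 7.53, 8.04, 7.18 and 7.71 in rescued livers. The groups overlapped and the difference was -0.38 (SE 0.18, adjusted p = 0.164).

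Among the haem and iron binding proteins none was called, although Hpx lay higher in all knockout livers by a small step. Its log2 intensity was 13.42, 13.40 and 13.49 in knockout livers, against 13.18, 13.40, 13.31 and 13.24 in rescued livers. The lowest knockout and the highest rescued liver both read 13.40, so the groups touch. The difference was 0.16 (SE 0.07, adjusted p = 0.149), and 0.04 to 0.08 after the 3 rescalings of the arrays. Hp had log2 intensities of 12.50, 12.71 and 13.01 in knockout livers, against 12.51, 12.69, 12.58 and 12.53 in rescued livers. The difference was 0.16 (SE 0.11, adjusted p = 0.2996), and 0.02 without knockout replicate 3. Lcn2, which sequesters bacterial siderophores and is made by hepatocytes and neutrophils, had log2 intensities of 7.90, 9.71 and 11.39 in knockout livers, against 8.06, 9.49, 8.30 and 8.67 in rescued livers. The knockout livers reached both below and above the rescued range, with a difference of 1.04 (SE 0.62, adjusted p = 0.242) that was 0.18 (adjusted p = 0.814) without knockout replicate 3 and 1.92 (adjusted p = 0.0572) without knockout replicate 1.

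Other cell types can contribute Lcn2, Saa3 and orosomucoid transcripts, so marker lists were read beside them. Of 12 neutrophil markers, all measured, 2 were called higher, Elane and Camp, against 9.54% of all genes, and the differences ran from 0.09 to 0.33. Their summed level, as log2 of the summed intensity, was 9.28 to 9.48 in knockout and 9.13 to 9.21 in rescued livers, and 7 of the 12 lay no higher than the 90th percentile of the receptor genes in both groups. Of 9 Kupffer cell and macrophage markers none was called, with a summed level of 11.70 to 11.81 in knockout and 11.35 to 11.90 in rescued livers. Of 7 stellate cell markers 1 was called higher, Lrat at 0.32, and of 6 endothelial markers 1 was called lower, Clec4g at -0.29, against 4.85% of all genes. The summed stellate level was 12.05 to 12.21 in knockout and 12.03 to 12.18 in rescued livers, and the summed endothelial level 11.945 to 12.218 in knockout and 12.194 to 12.229 in rescued livers. Of 4 measured cholangiocyte markers none was called. All 4 differences were positive (0.07 to 0.31), as were 13659 of the 19933 differences over all genes. The summed cholangiocyte level did not overlap, at 9.003 to 9.190 in knockout and 8.80 to 8.94 in rescued livers. The summed neutrophil, adipocyte and hepatocyte marker levels did not overlap either, each being higher in knockout livers. The hepatocyte sum was 16.164 to 16.184 in knockout and 16.133 to 16.155 in rescued livers. Among all single genes, every knockout array lay above every rescued array in 21.0%, and the median log2 difference was 0.09. Of 9 measured lymphocyte markers and 4 adipocyte markers none was called. The summed lymphocyte level was 9.16 to 9.25 in knockout and 9.08 to 9.18 in rescued livers, and the summed adipocyte level 7.94 to 8.18 in knockout and 7.81 to 7.93 in rescued livers. Their part in the differences of the members was not tested.

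Within each group the same liver was highest for every member. Knockout replicate 3 was the highest knockout liver for all 10 members, while over all genes it was the highest in 18.8%. Rescued replicate 2 was the highest rescued liver for all 10 members, and over all genes in 18.1%. At the other end, knockout replicate 1 was the lowest knockout liver for 9 members (19.2% of all genes) and rescued replicate 1 the lowest rescued liver for 8 (25.5% of all genes). Paralogs may share probes, so the 10 genes are not independent of each other. Knockout replicate 3 exceeded the mean of the other knockout livers by 3.60 log2 units for Saa2, 2.58 for Lcn2, 2.22 for Orm2 and 1.21 for Orm3, and by 0.08 for Hpx. No such value is given for Saa1, which read below the 95th percentile of the receptor genes in both other knockout livers. The range within the group was wider in knockout than in rescued livers for 8 members, all but Saa3 and Hpx, against 49.7% of all genes. With knockout replicate 3 and rescued replicate 2 both left out, an alternative chosen after seeing the data, Orm3 was again the 1 member called, at 1.87 (adjusted p = 0.0117). The corresponding differences were 1.14 for Saa2 (adjusted p = 0.0721) and -0.55 for Saa4 (adjusted p = 0.0801).

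**Figure D2:**
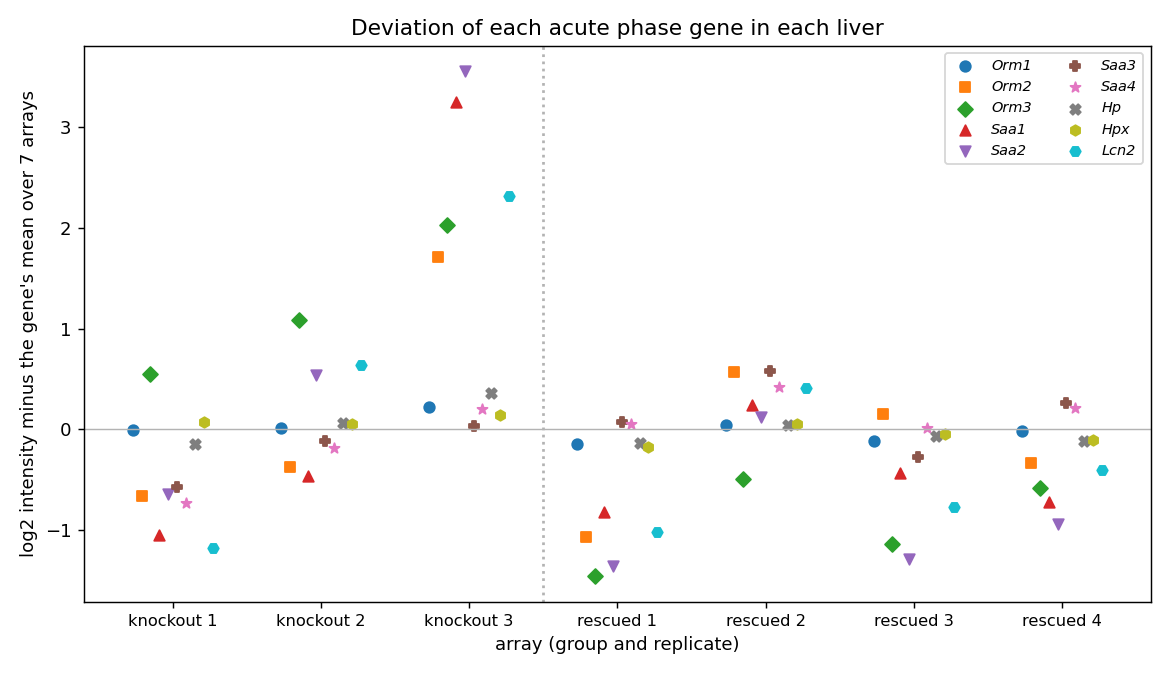
Log2 intensity of each acute phase gene in each liver minus that gene's mean over the 7 arrays, with knockout replicates on the left and rescued replicates on the right. Knockout replicate 3 holds the highest knockout value and rescued replicate 2 the highest rescued value of every gene, while Orm3 is above its mean in all 3 knockout livers and below it in all 4 rescued livers.

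**Figure D3:**
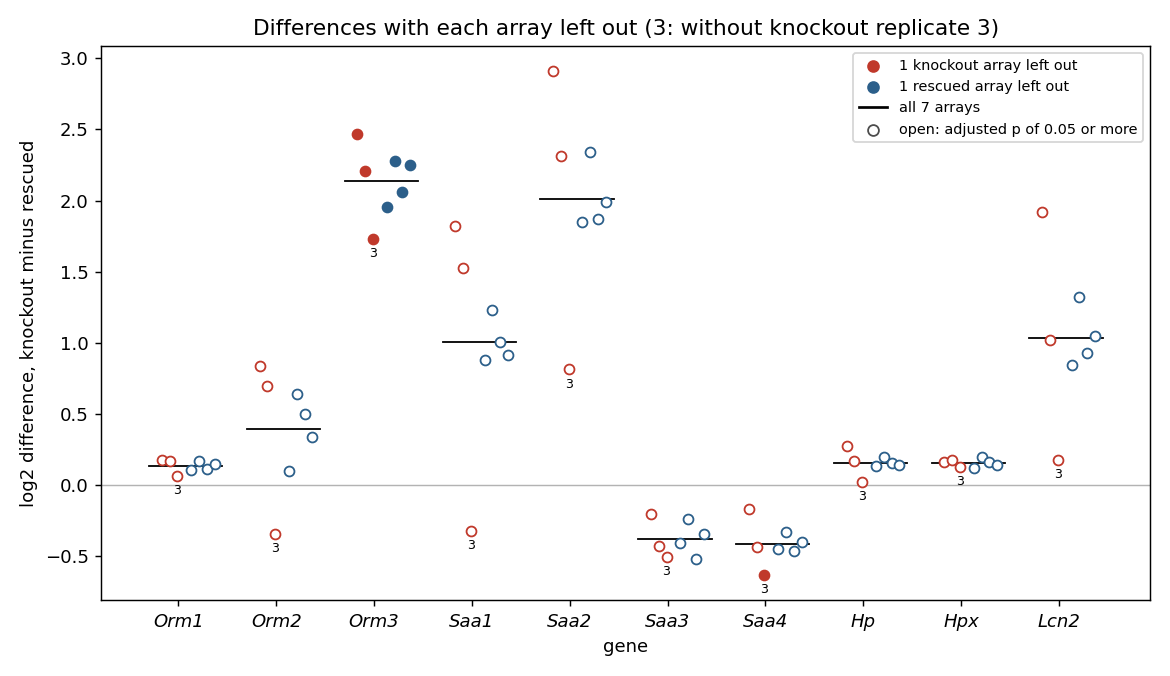
Log2 difference, knockout minus rescued, of each acute phase gene with all 7 arrays (line) and with 1 knockout (red) or 1 rescued array (blue) left out; filled points have an adjusted p under 0.05. Orm3 stays between 1.73 and 2.47 and is filled throughout, whereas Orm2 and Saa1 change sign without knockout replicate 3.

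Other positive acute phase genes, a list of 35 of which 28 were measured, were mostly not called. In this list 1 gene was higher and 1 lower, against 9.54% and 4.85% of all genes, and the median difference was 0.07 against 0.09 over all genes. The terminal complement component gene C9 fell in the knockout livers, at 10.68, 10.77 and 11.22, against 11.31, 11.60, 11.54 and 11.63 in rescued livers. Its log2 difference was -0.64 (SE 0.13, adjusted p = 0.0121), and it missed the threshold with knockout replicate 1 left out (adjusted p = 0.0610). The ferroxidase gene Cp (ceruloplasmin) was higher by 0.24 (SE 0.07, adjusted p = 0.0427). That call was lost with any of the 7 arrays left out (adjusted p from 0.0564 to 0.102) and in all 3 rescalings. Without knockout replicate 3 the list held 3 lower members, C9, Crp and Itih3, the last 2 named after their values were seen.

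The spread between livers seen in the members recurred in part in this list. Knockout replicate 3 was the highest knockout liver for 20 of the 28 genes (71.4%, against 18.8% of all genes). Rescued replicate 2 was the highest rescued liver for 13 (46.4%, against 18.1% of all genes). The metallothionein gene Mt1, named after its value was seen, had log2 intensities of 9.80, 10.75 and 12.07 in knockout livers, against 9.28, 9.94, 9.97 and 9.78 in rescued livers, with a difference of 1.13 (SE 0.40, adjusted p = 0.0731). The fibrinogen-like gene Fgl1, likewise named after its value was seen, had 10.93, 11.07 and 12.31 in knockout livers, against 10.33, 11.36, 11.11 and 10.17 in rescued livers. Both were highest in the liver that was highest for the members. The fibrinogen chain genes Fga, Fgb and Fgg, the pentraxin gene Crp and the inhibitor gene Serpina3n overlapped between the groups, with differences of 0.08, -0.02, -0.01, -0.14 and 0.07.

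Negative acute phase genes, whose levels fall in inflammation, showed no call. Of 12 listed genes 11 were measured, and their differences ran from -0.09 to 0.19. At an unadjusted p under 0.05 there was 1 gene, Serpina6 (corticosteroid-binding globulin), with 0.19 (adjusted p = 0.0626 in limma's test). It passed with the variance trend and robust spread (adjusted p = 0.0282) and among genes at or above the median level (adjusted p = 0.0490). It passed in no other of the 8 alternatives on all genes or arrays, where the difference went down to 0.08 and the adjusted p up to 0.497. No fit with an array left out called it (adjusted p from 0.0977 to 0.125). The transferrin gene Trf differed by 0.13 (adjusted p = 0.165). Knockout replicate 3 was the lowest knockout liver for 8 of these 11 genes and the highest for 1, while over all genes it was the lowest in 46.8%.

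**Figure D4:**
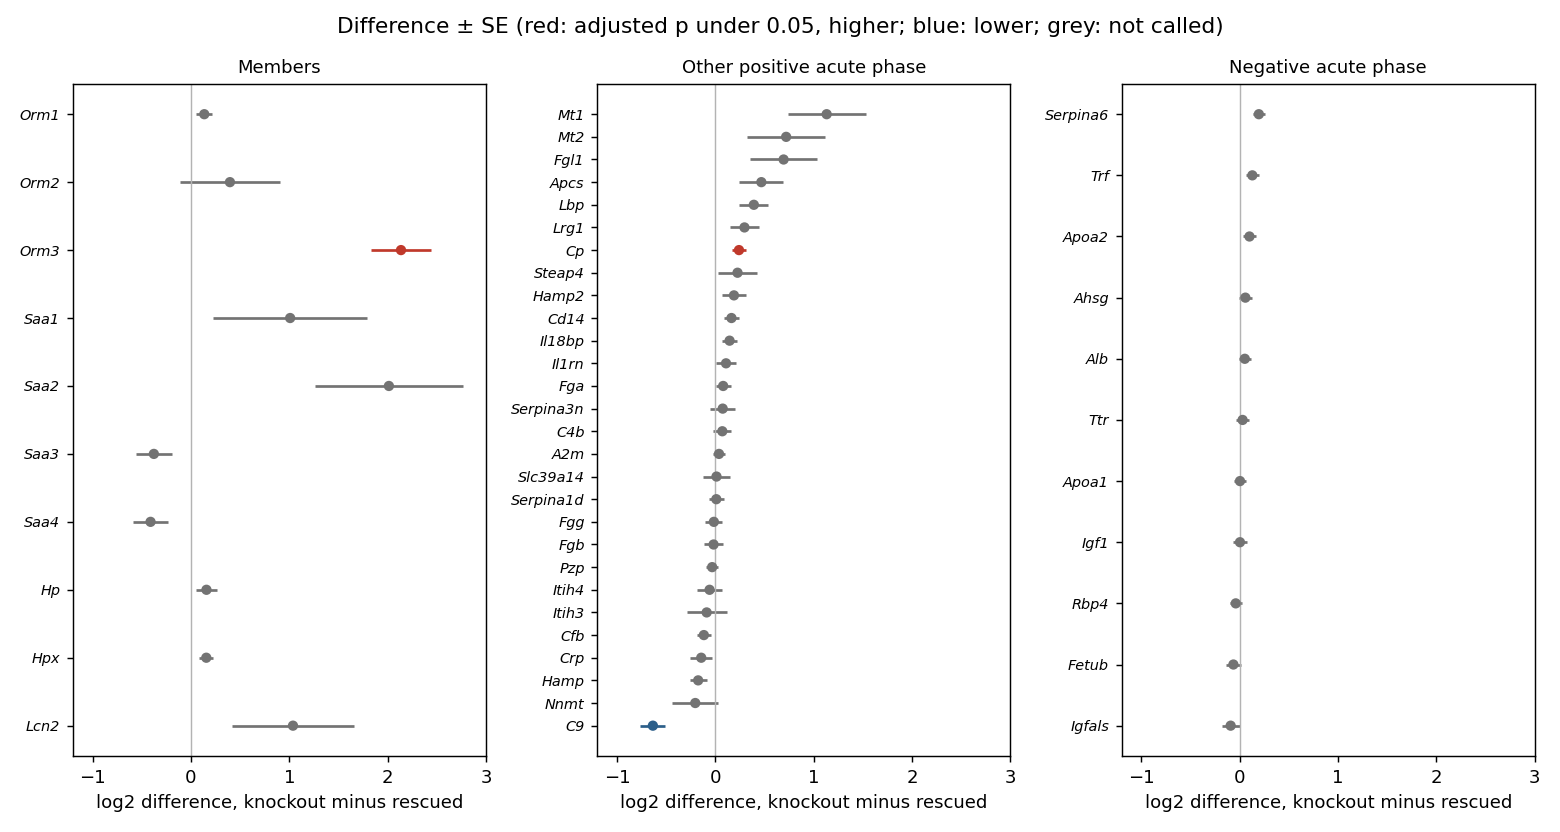
Log2 difference, knockout minus rescued, with its SE for the 10 members, 28 other positive and 11 negative acute phase genes. Orm3 and Cp (red) were called higher and C9 (blue) lower; the error bars of Saa1, Saa2, Lcn2 and Orm2 are the widest of the members.

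The cytokines, receptors and signal transducers that drive the acute phase were examined as a list of 54 genes, of which 47 were measured. In it 8 genes were higher and 3 lower, against 9.54% and 4.85% of all genes. The split depended on scaling, as did the shares of all genes. After quantile normalization or cyclic loess 5 were higher and 2 lower. All genes gave 4.22% and 5.76% after quantile normalization and 4.09% and 5.75% after cyclic loess. After median centring 1 was higher and 6 were lower, against 2.59% and 10.9% of all genes. The number of higher genes was 2 without knockout replicate 1 or 3, 4 without rescued replicate 2 or 4 and 3 without rescued replicate 3. It also fell without knockout replicate 2, and it rose without rescued replicate 1. It was 1 without both knockout replicate 3 and rescued replicate 2, with 1 gene lower.

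The largest change in the list was a fall of Il1rap, the accessory chain that interleukin-1 receptors need to signal. Its log2 intensity was 9.62, 9.59 and 9.49 in knockout livers, against 10.41, 10.44, 10.58 and 10.50 in rescued livers. The livers within each group were close together, and the difference of -0.92 (SE 0.07, adjusted p = 5.65e-05) ran from -0.94 to -0.88 with an array left out. Nfkbia, which encodes the NF-kB inhibitor IkB alpha, had log2 intensities of 9.04, 8.90 and 9.06 in knockout livers, against 9.27, 9.48, 9.61 and 9.51 in rescued livers. It fell by 0.47 on the log2 scale (adjusted p = 0.00926), was called in all 7 fits with an array left out, and lost its call without both knockout replicate 3 and rescued replicate 2 (adjusted p = 0.0543). The level of the interleukin-6 receptor chain genes Il6ra and Il6st differed by -0.16 and 0.10 and neither was called, although Il6ra was called lower after median centring. The interleukin-6 gene Il6 itself read at the 7.7th percentile of the dim background genes in knockout and the 11.4th in rescued livers. Osm, which encodes the gp130 cytokine oncostatin M, was called at 0.35 (adjusted p = 0.0153) and in all 7 fits with an array left out, but in none of the 3 rescalings, and it read at the 85.9th percentile of the dim background genes in knockout and the 83.0th in rescued livers. Stat3, the factor downstream of gp130, was called at 0.39 (adjusted p = 0.0449) and in no rescaling and no fit with an array left out. The TNF receptor gene Tnfrsf1a was called at 0.34 (adjusted p = 0.0244), and also after quantile normalization and cyclic loess. It lost its call after median centring, with the replicate block and without knockout replicate 3 or rescued replicate 3. Traf6 was called lower at -0.29 (adjusted p = 0.0451) and after median centring, but not in the other rescalings. With an array left out it was called only without rescued replicate 1. Osm, Stat3, Tnfrsf1a and Traf6 are named after their values were seen.

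Of 11 feedback genes of the STAT3 and NF-kB pathways 5 were called higher and 1 lower, against 9.54% and 4.85% of all genes. The higher count was 0 without knockout replicate 1, 1 (Junb) without knockout replicate 3 or after median centring, 2 without rescued replicate 2, 3 or 4, and 1 (Bcl3) without both knockout replicate 3 and rescued replicate 2. It was 4 without knockout replicate 2 and after quantile normalization or cyclic loess, 6 without rescued replicate 1, and 5 in the remaining settings. The NF-kB cofactor gene Bcl3 had log2 intensities of 9.45, 9.40 and 9.90 in knockout livers, against 8.62, 9.26, 9.01 and 8.94 in rescued livers, a difference of 0.62 (SE 0.15, adjusted p = 0.0244). It missed the threshold when knockout replicate 1 or 3 or rescued replicate 3 or 4 was omitted (adjusted p from 0.0554 to 0.0651), and after median centring (adjusted p = 0.0556). Socs3, the inhibitor of gp130 signalling, was higher by 0.49 (SE 0.12, adjusted p = 0.0258) and lost its call without the same 4 arrays (adjusted p from 0.0524 to 0.0770), after median centring (adjusted p = 0.0804) and without both knockout replicate 3 and rescued replicate 2 (adjusted p = 0.0771). Nfkbiz, an NF-kB cofactor of inflammatory genes, was higher by 0.48 (adjusted p = 0.0337) and lost its call in the 3 rescalings and without any knockout replicate or rescued replicate 2 (adjusted p from 0.0527 to 0.0902). The AP-1 factor gene Junb was higher by 0.41 (adjusted p = 0.0209), in all 3 rescalings too, and missed the threshold when knockout replicate 1 or rescued replicate 2 or 4 was omitted (adjusted p from 0.0552 to 0.0846). The other called feedback gene was Sbno2, named after its value was seen, at 0.40 (SE 0.10, adjusted p = 0.0246), and it was not called after median centring or when any of knockout replicates 1 and 3 and rescued replicates 2 and 3 was omitted.

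**Figure D5:**
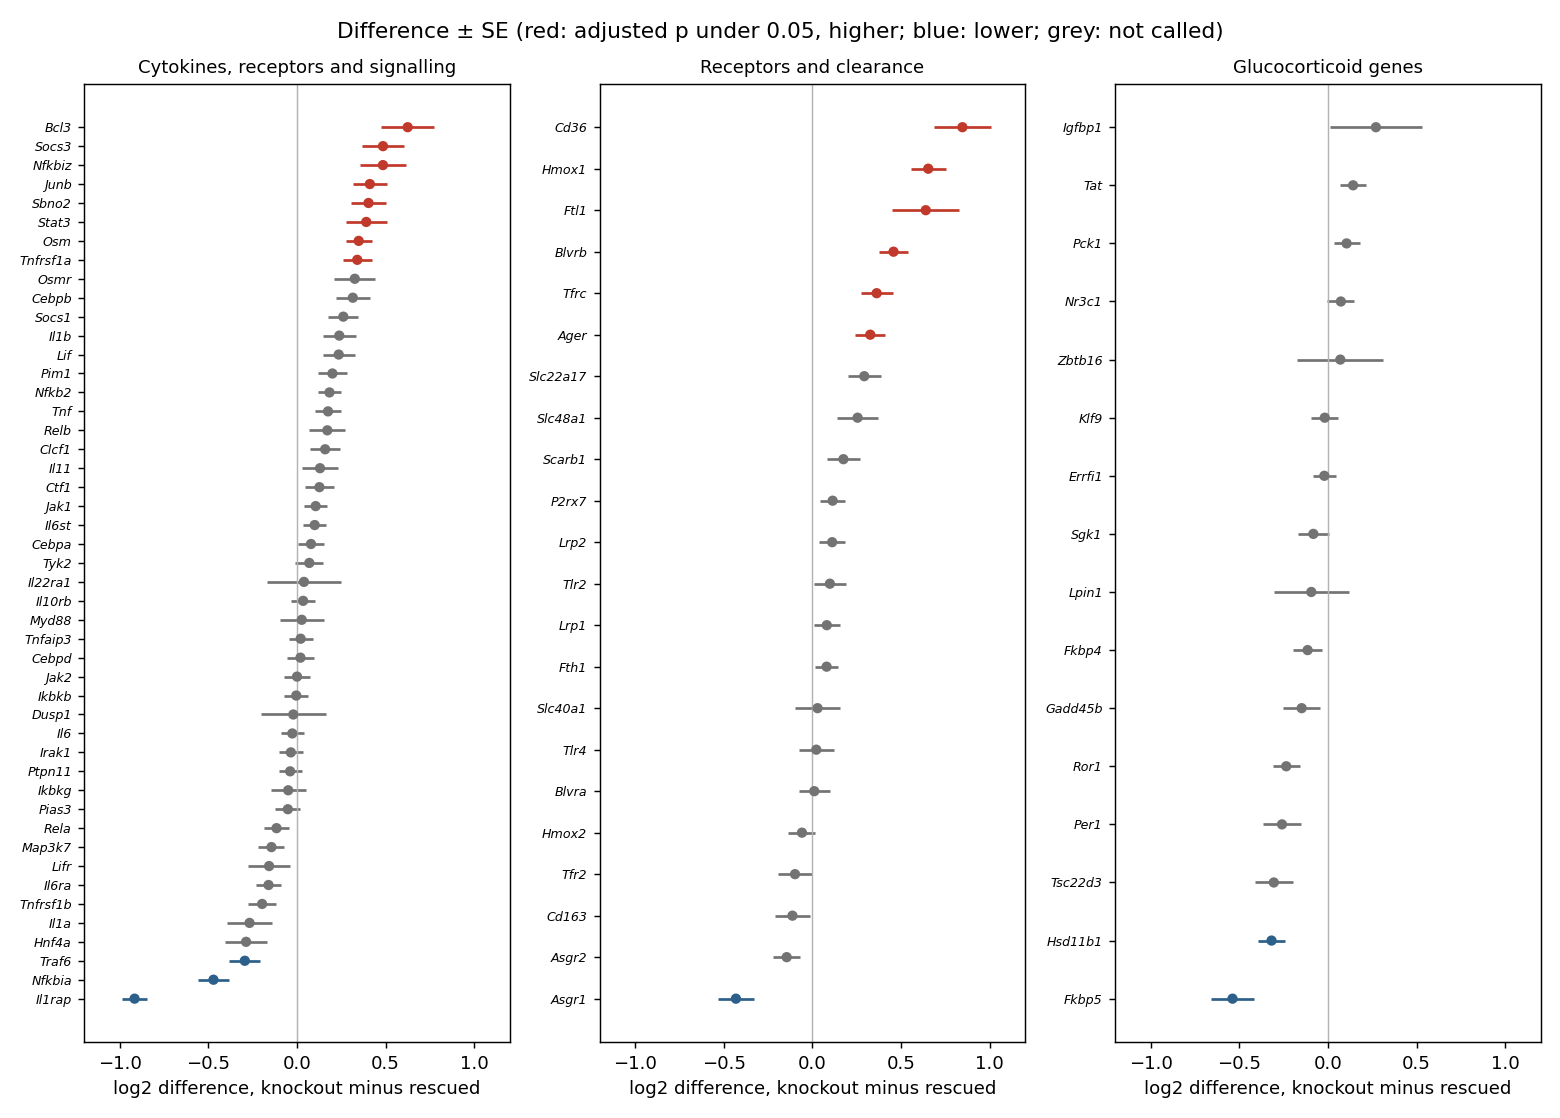
Log2 difference, knockout minus rescued, with its SE for 47 cytokine, receptor and signalling genes, 22 receptors and clearance genes and 16 glucocorticoid genes. Il1rap at -0.92 is the lowest gene of the first list, and Cd36 and Hmox1 lead the second.

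Genes that receive or clear the products of the members were listed too, 24 genes of which 22 were measured, and 6 were higher and 1 lower, against 9.54% and 4.85% of all genes. After median centring 3 were higher and 1 lower, against 2.59% and 10.9%, and 3 were higher without knockout replicate 1 or rescued replicate 3. The haem-degrading enzyme gene Hmox1 had log2 intensities of 8.45, 8.62 and 8.40 in knockout livers, against 7.62, 7.90, 8.03 and 7.80 in rescued livers. It rose by 0.65 (SE 0.10, adjusted p = 0.00330), did not overlap between groups and was called in every setting run. Blvrb, a reductase of the step after haem oxygenase, rose by 0.46 (SE 0.08, adjusted p = 0.00825) and was also called in every setting. Cd36, a scavenger receptor to which serum amyloid A can bind, rose by 0.85 (SE 0.16, adjusted p = 0.0103), and was not called without both knockout replicate 3 and rescued replicate 2 (adjusted p = 0.0582).

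The remaining calls of this list were less stable. The receptor gene Ager, named after its value was seen, was higher by 0.33 (adjusted p = 0.0314) and was called in none of the 3 rescalings. Its call was also lost with the replicate block and when knockout replicate 1 or rescued replicate 3 or 4 was omitted. The same held without both knockout replicate 3 and rescued replicate 2. The ferritin light chain gene Ftl1 had log2 intensities of 10.28, 10.22 and 9.34 in knockout livers, against 9.42, 9.22, 9.43 and 9.17 in rescued livers. Here knockout replicate 3, the liver highest for the acute phase genes, was the low knockout liver, and the difference was 0.64 (adjusted p = 0.0454) with all arrays and 0.94 without that liver. The call was lost without any other array (adjusted p from 0.0525 to 0.182). The transferrin receptor gene Tfrc was higher by 0.36 (adjusted p = 0.0278) and the asialoglycoprotein receptor gene Asgr1, whose product clears desialylated plasma glycoproteins, was lower by a log2 difference of -0.43 (adjusted p = 0.0217). Both missed the threshold when knockout replicate 1 or 2 or rescued replicate 2 or 3 was omitted (adjusted p from 0.0703 to 0.102 for Tfrc and from 0.0508 to 0.0886 for Asgr1). The receptors known for the members themselves, Cd163 for haptoglobin with haemoglobin, Lrp1 for hemopexin with haem and Slc22a17 for Lcn2, were not called, with differences of -0.11, 0.08 and 0.29. Slc22a17 was close to the threshold (adjusted p = 0.0556). It was called higher among genes at or above the median level, with the replicate block, and without knockout replicate 2 or rescued replicate 1.

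Glucocorticoid genes were examined because the hormone acts on Orm genes in the liver. Of 16 measured genes none was higher and 2 were lower, against 9.54% and 4.85% of all genes. After median centring 5 were lower, against 10.9%. The co-chaperone gene Fkbp5, a known target of the glucocorticoid receptor, had log2 intensities of 8.84, 8.86 and 9.26 in knockout livers, against 9.36, 9.66, 9.69 and 9.39 in rescued livers, a difference of -0.54 (SE 0.12, adjusted p = 0.0188). Hsd11b1, the enzyme gene that regenerates active glucocorticoid in the liver, differed by -0.32 (SE 0.08, adjusted p = 0.0253). Neither gene was called without knockout replicate 1 or 2 or rescued replicate 3, Fkbp5 was also lost without rescued replicate 2 and Hsd11b1 without rescued replicate 4 (adjusted p from 0.0523 to 0.0865). The number of lower genes was 0 without knockout replicate 1 or 2 or rescued replicate 3, 1 without rescued replicate 2 and 4 without rescued replicate 1. The receptor gene Nr3c1 differed by 0.07 (adjusted p = 0.493).

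Genes outside the members with profiles most like Orm3, Saa1 and Hpx were sought among 9558 genes at or above the median level. The measure was the mean absolute distance over the 7 arrays between log2 profiles, each with its own mean taken off. The members themselves, predicted or clone names and small RNA genes were left out, so a member closer to another member is not listed. Closest to Orm3 were the magnesium transporter gene Slc41a2 (0.44), Tifa, an adaptor of TRAF6 signalling (0.44), the proton pump subunit gene Atp6v0d2 (0.45) and Mt1 (0.49), while Orm3 itself deviated from its mean by 1.05 on average. Closest to Saa1 were Mt1 (0.59), Fgl1 (0.61), Mt2 (0.62) and Prg4 (0.70), against a mean deviation of Saa1 of 1.00, and most of the Saa1 readings are the dim ones described above. Mt1 was thus near both Orm3 and Saa1. For Hpx the closest were Ppat (0.02), Tat (0.03), Pawr (0.03) and Lamp2 (0.03), with a mean deviation of Hpx of 0.09. These are likenesses over 7 arrays of 2 groups and carry no test.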

How the data were processed

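Total RNA of 7 livers was hybridised to Affymetrix Mouse Gene ST arrays, 1 array per mouse. The deposited intensity values are on a linear scale, as read from the values, and per the submitters' processing notes the authors used RMA and Partek, with versions and the role of each not given in the sources used here. Which scaling came last is unknown. Here log2 was taken, no filter on dim genes was applied, and a gene was read at its brightest probe set with exactly 1 symbol in the platform annotation (21631 of 27541 rows had 1 symbol, 1317 several and 4593 none). All 7 arrays entered a fit of log2 values with no covariates (limma 3.58.1, R 4.3.3, lmFit then eBayes, two-sided). P-values were adjusted by Benjamini and Hochberg's method across the 19933 genes, and an adjusted p under 0.05 counts as called. Alternatives were 3 rescalings, a filter on dim genes, the mean of probe sets, all rows, variance trend with robust spread, the replicate number as a block and each array left out. Precision is limited by how few arrays there are.

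The members and gene lists were chosen with earlier results of these data known. Named genes were all members, Hdac3 and, of each other list, the called genes (at most 6, by size of difference), and in a list without calls at most 2 genes by p. Genes outside this rule are said to be so or stand for a named role. Promoter sequences are from RefSeq (GRCm38.p6), aligned with Biopython 1.88. For the array annotation no build is named in the labels. Figures were drawn with matplotlib 3.10.9.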

Additional observations from a re-analysis of the deposited data

How the results depend on the processing

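Under the 8 alternatives on all genes or arrays, Orm3 was the 1 member called and its direction held, as did the direction of the other members (Saa1 was not among the genes at or above the median level). With each array left out, Orm2 ranged from -0.34 to 0.84 and Saa1 from -0.32 to 1.82, both negative without knockout replicate 3, and 1 member was called higher and 0 to 1 lower. Without both knockout replicate 3 and rescued replicate 2, chosen after seeing the data, both differences were -0.10 (-0.0960 for Orm2 and -0.0989 for Saa1). The cause was not tested.

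Across the array 1901 genes were higher and 966 lower at the threshold. The higher count was 842 after quantile normalization, 517 after median centring (2167 lower), 816 after cyclic loess, 1032 among genes at or above the median level and 1233 with the replicate block. Without both arrays it was 549, with 305 lower. Leaving out each array gave 449 to 2199 higher and 417 to 1064 lower. Of the other positive acute phase genes, 1 was higher, against 0 after each rescaling, over all rows and without both arrays, and 2 with the replicate block (Mt1 and Mt2), with a range of 0 to 1 higher and 0 to 3 lower with each array left out. Of the negative acute phase genes 1 was higher among genes at or above the median level and with trend and robust spread. Of the signalling genes 8 were higher and 3 lower. There were 5 higher after quantile normalization and cyclic loess, 1 higher and 6 lower after median centring, 1 higher and 1 lower without both arrays, and 2 to 10 higher and 2 to 4 lower with each array left out. Of the clearance genes 6 were higher, 3 after median centring, and 3 to 7 higher and 0 to 1 lower with each array left out. Of the glucocorticoid genes 2 were lower, 5 after median centring, 4 with the replicate block, 1 without both arrays and 0 to 4 with each array left out.

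Replicate numbers 1 to 3 occur in both groups, but deviations from the group means correlated at 0.18, 0.01 and -0.02 between arrays of the same number, and knockout replicates 2 and 3 correlated best with another number. Knockout replicate 1 correlated best with rescued replicate 1. The correlations thus show no clear pairing of livers by number, but so few arrays cannot exclude one. With the replicate block on 6 arrays the Orm3 difference was 2.25 (adjusted p = 0.000968).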
